A study of Rattus norvegicus with 6 samples.

Results

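Levels and co-detection of 10 immediate early transcription factor genes were followed in T cell and enterocyte nuclei of rat colon. The genes were Fos, Fosb, Jun, Junb, Jund, Egr1, Atf3, Klf4, Klf6 and Ier2. They were listed by name, with no threshold on a measured value but with earlier results of these data known, and all 10 were present among the 17388 genes counted in enterocytes and the 15108 compared in T cells. Nuclei for the single nuclei RNA sequencing (snRNA-seq) were isolated from frozen colon tissue of male Wistar rats in 3 treatments, sham, placebo and PL8177, with 3 library tags each. Colitis was induced in the placebo and PL8177 groups by 5% dextran sulfate sodium (DSS), an epithelial irritant, in the drinking water for 3 days, followed by capsules given by gavage 2 times a day, 6 hours apart, for 4 days. The capsules held 50 µg PL8177, an agonist of the melanocortin 1 receptor, or no drug, and sham rats had water without DSS. Each tag was taken as 1 rat, a reading that the sample labels leave unstated.

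Immediate early genes are transcribed soon after a cell meets a growth factor, a cytokine or a stress, without the need for newly made protein. The Fos and Jun proteins pair to form the transcription factor AP-1, which binds DNA at the sequence TGANTCA. Egr1 is a zinc finger factor induced by growth factor and MAP kinase signalling, Atf3 is a stress-induced factor of the CREB family, Klf4 and Klf6 are Krüppel-like factors, and Ier2 encodes a small nuclear protein. In colon epithelium Klf4 is known for its part in the differentiation of non-dividing cells. Signals reach these genes along known routes: MAP kinases act through serum response factor at the CArG box, and cyclic AMP, the messenger of melanocortin receptors, acts through CREB at the cyclic AMP response element (CRE).

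RefSeq promoter sequences (rat assembly GRCr8, whereas the counts were made on Rnor 6.0) were matched by symbol for 7 of the 10 genes, and the 250 bases before the annotated start were searched on both strands. The searched motifs were the CRE (TGACGTCA), the AP-1 site (TGANTCA), the CArG box and the EGR site (GCGNGGGCG), none of which overlapped another in these windows. A CRE was present in Jund and Ier2, against 1.59% of 33469 rat promoters of the same length. A CArG box was present in Egr1, with 2 matches, and in Klf6, against 1.5% of promoters. Jund also held 3 EGR sites, a motif found in 4.29% of promoters, and none of the 7 windows held an AP-1 site, which 6.34% did. A match is a description of these letters and was not measured as binding. Whether the annotated start of each gene is the one used in these cells was not tested. A window without a match, such as that of Fosb or Klf4, therefore does not show that the promoter lacks the motif. The windows of Egr1, Jund and Ier2 are printed 5′ to 3′ because they hold both CRE matches and the pair of CArG boxes, with each motif match in capitals. The window of Klf6, with a single CArG box, is not printed. Egr1 lies at chr18:26736828-26737077 on the plus strand, Jund at chr16:18769772-18770021 on the minus strand and Ier2 at chr19:40399123-40399372 on the plus strand.
Egr1: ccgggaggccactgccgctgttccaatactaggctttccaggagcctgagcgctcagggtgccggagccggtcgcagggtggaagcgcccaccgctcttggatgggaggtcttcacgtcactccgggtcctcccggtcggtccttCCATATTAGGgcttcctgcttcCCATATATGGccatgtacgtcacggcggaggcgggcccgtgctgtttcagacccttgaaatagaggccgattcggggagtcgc
Jund: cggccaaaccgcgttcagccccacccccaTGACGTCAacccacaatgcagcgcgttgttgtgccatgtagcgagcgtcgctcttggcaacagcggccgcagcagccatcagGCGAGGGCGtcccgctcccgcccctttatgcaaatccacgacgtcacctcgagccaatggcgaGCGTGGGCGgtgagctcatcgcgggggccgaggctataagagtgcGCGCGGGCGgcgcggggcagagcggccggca
Ier2: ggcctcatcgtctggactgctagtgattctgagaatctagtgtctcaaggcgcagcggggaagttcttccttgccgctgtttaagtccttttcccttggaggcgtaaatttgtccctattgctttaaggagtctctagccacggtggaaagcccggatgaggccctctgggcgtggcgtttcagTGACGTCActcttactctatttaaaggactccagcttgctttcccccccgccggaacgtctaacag

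The data held 9800 nuclei, 8782 of enterocytes and 1018 of T cells. The total per rat lay between 319125 and 4123319 unique molecular identifiers (UMIs, 1 for each RNA molecule captured) in enterocytes, and between 8070 and 779009 in T cells. Median UMIs per enterocyte nucleus ranged from 437 in sham rat GR13 to 2331 in sham rat GR12, so that shares of nuclei with a UMI differ with depth. Placebo rat GR23 stood apart in T cells. It gave 685 of the 1018 T cell nuclei, of which only 22 met the rule for T cell marker nuclei, namely a T cell marker UMI and not more UMIs from enterocyte markers. Per 10000 UMIs, the 13 T cell markers summed to 2.13 and the 15 enterocyte markers to 195 in its T cell nuclei, against 24.8 to 58.6 and 19.3 to 78.2 in the other 8 rats. In enterocyte nuclei the T cell markers summed to 0.156 to 0.846 per 10000, and the enterocyte markers to 144 to 309.8. Of 9790 distinct barcodes, 10 were found in 2 or more rats, and no nucleus was in both cell types.

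In enterocytes, Jun, Egr1, Atf3 and Fosb had higher mean levels in placebo than in sham and PL8177 rats, Fos a higher mean in placebo and PL8177 than in sham rats, and Junb its highest mean in sham rats. None of these differences passed the adjusted threshold of edgeR's quasi-likelihood test. Levels are given as UMIs per 10000 UMIs of a rat's enterocyte nuclei. Fewer nuclei expressing a gene and less RNA per nucleus cannot be told apart in such sums. The counts include introns, so they are compared between rats and not between genes.

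Jun, which encodes the main partner of the Fos proteins in AP-1, was the gene with the least spread in placebo rats. Its level was 2.32 in GR22, 2.41 in GR23 and 2.41 in GR24 (placebo), 0.946 in GR12, 1.63 in GR13 and 1.21 in GR15 (sham), and 0.694 in GR41, 1.29 in GR43 and 1.42 in GR44 (PL8177). Within each treatment, the values of the following genes are in the same order of rats. All 3 placebo rats were above all 6 other rats. The means were 2.38 ± 0.0526 (SD, n = 3) in placebo, 1.26 ± 0.343 in sham and 1.13 ± 0.385 in PL8177 rats. The fitted log2 fold change (edgeR) was −0.77 (SE 0.318, adjusted p = 0.361) for sham and −0.91 (SE 0.312, adjusted p = 0.419) for PL8177 against placebo. The exact two-sided permutation test of each difference gave p = 0.1, the smallest that 3 against 3 rats allow. Lower groups without overlap were found for 14.3% of the 9424 genes tested in sham and for 14.1% in PL8177 against placebo.

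Egr1 had the largest fitted difference in PL8177 rats among the 10 genes. Its level was 0.145, 0.192 and 0.143 in the PL8177 rats, 1.37, 0.721 and 0.328 in the placebo rats, and 0.525, 0.178 and 0.101 in the sham rats. The PL8177 rats were all below the placebo rats, while sham rat GR12 overlapped them. The log2 fold change against placebo was −2.17 (SE 0.552, adjusted p = 0.270, edgeR) for PL8177 and −1.28 (SE 0.540, adjusted p = 0.370) for sham. DESeq2, run as an alternative on the same sums, called Egr1 in PL8177 against placebo (log2 fold change −2.18, adjusted p = 0.0259), 1 of the 50 genes it called, which are 0.531% of those tested. Without placebo rat GR22 the edgeR value was −1.41 for PL8177 and −0.53 for sham.

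Atf3 and Fosb depended on placebo rat GR22. Atf3 stood at 1.89, 1.07 and 0.367 in the placebo rats, 0.320, 0.312 and 0.525 in the sham rats, and 0.341, 0.274 and 0.663 in the PL8177 rats. Fosb, which encodes a further AP-1 subunit, was rare, with 0.529, 0.157 and 0.0113 in the placebo rats, 0.0314, 0.0668 and 0.0404 in the sham rats, and 0.123, 0.0170 and 0.0260 in the PL8177 rats. Groups overlapped for both genes. Placebo rat GR24 lay among the sham and PL8177 rats for Atf3 and was the lowest of the 9 rats for Fosb. Against placebo, Atf3 had a log2 fold change (edgeR) of −1.42 (SE 0.537, adjusted p = 0.331) in sham and −1.27 (SE 0.514, adjusted p = 0.489) in PL8177 rats, and −0.64 and −0.49 without GR22. For Fosb the corresponding values were −2.54 (SE 1.12, adjusted p = 0.388) and −2.06 (SE 0.960, adjusted p = 0.546), and −0.19 and 0.26 without GR22. GR22 held 209 of the 216 Fosb UMIs of placebo enterocytes.

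Fos itself was higher in each PL8177 rat than in each sham rat. Its level was 1.67, 1.09 and 1.17 in the sham rats, 3.01, 1.88 and 1.90 in the PL8177 rats, and 3.31, 1.57 and 1.46 in the placebo rats, which overlapped both. PL8177 against sham gave a log2 fold change of 0.78 (SE 0.333, adjusted p = 0.747, edgeR), and 6.02% of genes had PL8177 rats above sham rats without overlap. Junb, a Jun family subunit, was at 3.32, 5.90 and 3.01 in the sham rats, 2.57, 2.29 and 3.10 in the placebo rats, and 3.12, 2.91 and 3.01 in the PL8177 rats. The groups overlapped, with the highest value in sham rat GR13, the rat with the shallowest nuclei. Sham against placebo gave 0.79 (SE 0.298, adjusted p = 0.331) on the log2 scale for Junb, and the value lay between 0.33 and 1.01 when each rat was left out in turn.

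Depth was matched by thinning each nucleus to 300 UMIs in a single random draw. In that draw the share of nuclei with a Junb UMI separated all 3 treatments by narrow gaps, whereas its levels from all UMIs overlapped. It was 10.2%, 15.9% and 8.72% in the sham rats, 8.21%, 8.27% and 8.13% in the PL8177 rats, and 6.70%, 7.41% and 7.48% in the placebo rats. Each sham rat lay above each PL8177 rat, and each PL8177 rat above each placebo rat, with an exact two-sided permutation p of 0.1 for every pair of treatments. The nearest sham and PL8177 rats, GR15 and GR43, stood on 608 and 1464 thinned nuclei. The nearest PL8177 and placebo rats, GR44 and GR24, stood on 738 and 1257. Whether another draw would keep the separation was not tested. Among all genes tested, 5.56% had thinned shares higher in sham and 4.75% higher in PL8177 than in placebo without overlap, and 5.05% lower in PL8177 than in sham. For genes lower than in placebo these shares were 14.6% for sham, where Ier2 was 1 of them, and 10.5% for PL8177, where Jun and Ier2 were.

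Levels of Jund, Klf4, Klf6 and Ier2 overlapped in every comparison of treatments. Jund, the Jun family member known for steady expression, ranged from 1.16 to 2.87 over the 9 rats with fitted differences of 0.00 to 0.04 on the log2 scale. Klf4 ranged from 3.27 to 9.65, with GR22 highest and GR13 lowest. Klf6 ranged from 1.69 to 3.19 and Ier2 from 0.178 to 0.435, again with GR22 highest and GR13 lowest. GR22 had the highest level of 7 of the 10 genes, all but Jun, Junb and Jund.

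**Figure D1:**
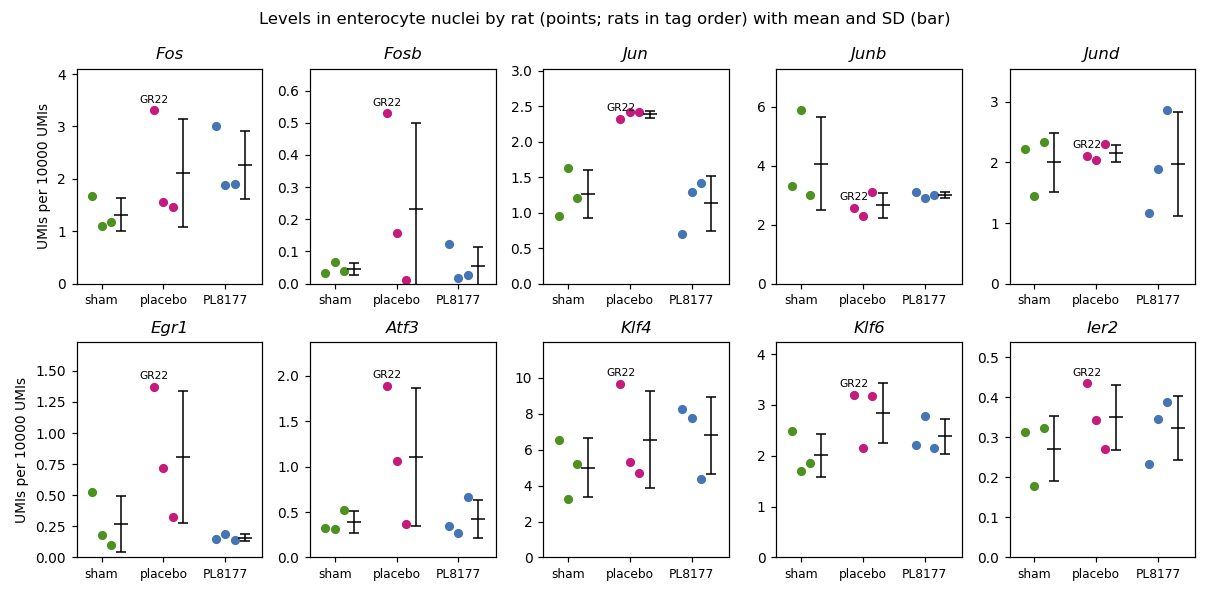
Level of each gene in enterocyte nuclei, in UMIs per 10000 UMIs (vertical axis, from 0), for 3 rats in each of sham, placebo and PL8177, as points, with the mean and SD beside them. The 3 placebo rats lie above all others only for Jun, and rat GR22 is highest for 7 of the 10 genes.

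Read over all genes, edgeR called 0 of 9424 genes (0%) in each of the 3 enterocyte comparisons at an adjusted p below 0.05 and a log2 fold change beyond 0.5, and DESeq2 called 107 in sham against placebo, 50 in PL8177 against placebo and 4 in PL8177 against sham. At an unadjusted p below 0.05, 1172, 871 and 621 genes passed. For sham against placebo, 4 of the 10 genes passed that unadjusted threshold with lower values and 1, Junb, with a higher value, against a background of 5.90% and 6.54% of genes. For PL8177 against placebo, 3 passed with lower and none with higher values, against 3.75% and 5.50%. For PL8177 against sham, Fos alone passed, with a higher value, against 3.09% higher and 3.50% lower. These counts moved when single rats were left out. For sham against placebo none of the 10 genes passed without GR22, 2 passed without GR12, GR13 or GR15, and Junb alone passed with nuclei thinned to 300 UMIs. For PL8177 against placebo Egr1 and Jun still passed as lower and Fos passed as higher without GR22, and Egr1 alone passed with thinned nuclei. Fos did not pass against sham without GR13, GR15 or GR41, or with thinned nuclei. The sham and PL8177 comparisons share the placebo rats. The median log2 fold change of the 10 genes was −0.45 in sham and −0.04 in PL8177 against placebo, and that of all genes tested −0.02 and −0.01. Without GR22 the medians of the 10 genes were −0.11 and 0.14, so that the sign for PL8177 turned, and with thinned nuclei, where 9 were tested, −0.10 and 0.00.

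**Figure D2:**
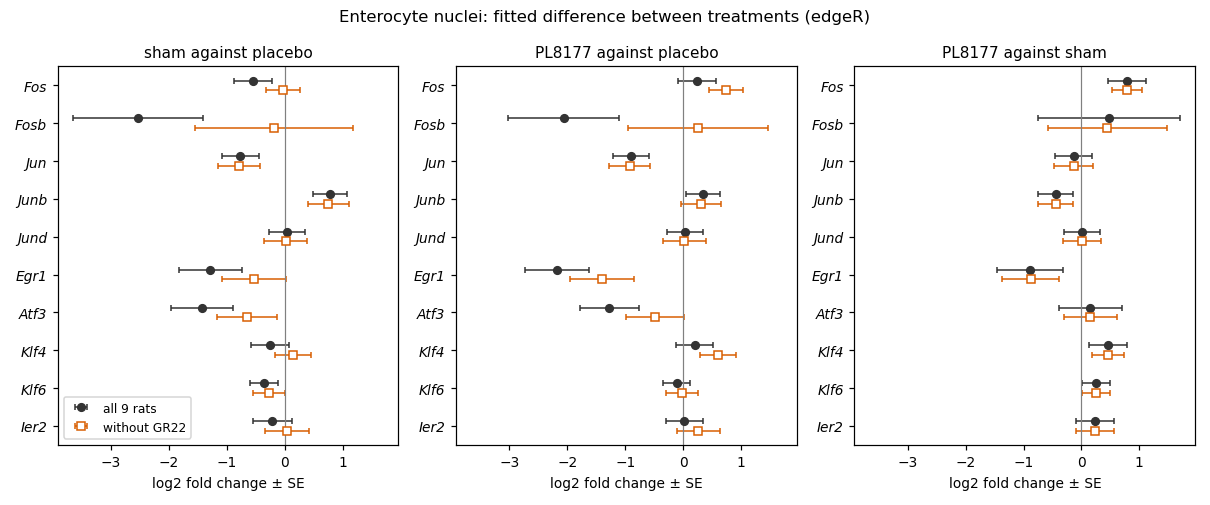
Fitted log2 fold change with its SE (horizontal axis) for each gene in enterocyte nuclei, in 3 comparisons of treatments, with all 9 rats (filled circles) and without placebo rat GR22 (open squares). Jun kept its value without GR22, whereas Fosb, Atf3 and Egr1 moved toward 0 in the comparisons with placebo.

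The wider immediate early network was read in the same fit. Of 14 other immediate early and AP-1 family genes tested, 11 had higher values in PL8177 than in placebo, with a median of 0.43 on the log2 scale. Of all 9424 genes tested, 48.7% were higher in this comparison. Those with the smallest p were Csrnp1, at 0.95 (SE 0.366), and Ier5, at 0.77 (SE 0.363). Of 16 genes on a list of feedback regulators, 15 were higher, with a median of 0.49. Among them were Dusp5, a nuclear phosphatase of ERK kinases, at 1.31 (SE 0.280, adjusted p = 0.239, edgeR), and Gadd45b at 1.13. In sham against placebo the medians of these lists were 0.07 and 0.03, and Dusp1, a MAP kinase phosphatase, stood at −1.69 (SE 0.469, adjusted p = 0.207) and Gadd45a at 1.26. Dusp1 was at 1.85 (SE 0.471) in PL8177 against sham, with an adjusted p of 0.733. Of 21 upstream kinases and activators, Mapk14, which encodes p38 alpha, had the smallest p in sham and in PL8177 against placebo, with 1.19 and 0.79. Heat shock genes, which report protein stress, had medians of −0.35 in sham and −0.46 in PL8177 against placebo over 8 genes, with Hsph1 at −1.91 in PL8177. Beside these lists the enterocyte markers had medians of 0.31 and 0.59 over 15 genes, and the cycling markers of 0.43 and 1.12 over 9 genes. In PL8177 against placebo, 13 of the 15 enterocyte markers and 9 of the 9 cycling markers were higher, as one-sided as the lists above. The part of these markers in the values was not tested. None of the genes of these lists passed the adjusted threshold in edgeR.

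Genes whose log2 CPM values were most alike to each of the 10 over the 9 rats were listed as a description. Among 7138 candidates, Pearson's r was 0.98 for Jun and Ppp1r14c, 0.98 for Junb and Map3k1, 0.97 for Klf6 and Spns1, 0.93 for Fos and B3gnt3, and 0.89 for Egr1 and Bbs2. Each value is the highest among the 7138 candidates over only 9 rats, and the value that unrelated genes would reach was not tested. The points share libraries and depth.

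Single enterocyte nuclei often held several of the 10 genes at once, and the 5 pairs with the highest ratios were all among Fosb, Atf3, Egr1 and Jun. The number of nuclei with at least 1 UMI of both genes was set beside the number expected if the 2 genes were independent within each rat and each of 5 equal classes of its nuclei by depth. All 45 pairs had an expectation of at least 5 nuclei, and 43 had more nuclei than expected. The median ratio was 1.18, from 0.90 to 3.38. Over all genes with at least 10 nuclei expected, the median ratio lay between 0.92 for Atf3 and 1.06 for Ier2. The 90th percentile lay between 1.04 for Klf4 and 1.34 for Fosb, and was 1.18 for Jun. Several pairs lay well inside the range of other genes. A higher ratio than Klf6 was found for 20.9% of genes paired with Fos, and than Klf4 for 37.6% of those paired with Junb. Fosb and Atf3 were found together in 58 nuclei against 17.1 expected, a ratio of 3.38. Of 4878 genes that could be paired with Fosb, Atf3 ranked 1, while the median gene had a ratio of 0.96. The ratio was 2.54 for Fosb and Egr1 (35 nuclei against 13.8) and 1.97 for Egr1 and Atf3 (111 against 56.4). Atf3 was detected in 56.3% of nuclei with a Fosb UMI and in 4.97% of those without, a gap that also reflects depth.

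Jun and Atf3 were found together in 258 nuclei against 150.1 expected, with a ratio above 1 in all 9 rats, from 1.41 to 3.52. Jun and Jund (1.24), Jun and Klf6 (1.19), Jund and Atf3 (1.32), Jund and Ier2 (1.17), Atf3 and Klf6 (1.18) and Junb and Egr1 (1.28) were likewise above 1 in 9 of 9 rats. Of genes paired with Jun, 0.151% had a higher ratio than Atf3, 6.57% than Jund and 9.06% than Klf6. A higher ratio than Ier2 was found for 5.29% of those paired with Jund, and than Klf6 for 12.9% of those paired with Atf3. For Jund and Atf3 and for Junb and Egr1 the shares were 0.448% and 0.351%. How many other gene pairs were above 1 in all 9 rats was not counted. Fos and Egr1 had a ratio of 1.35, and Egr1 ranked 17 of 9343 genes paired with Fos. Fos and Jun, whose products pair in AP-1, had a ratio of 1.10, above 1 in 7 of 9 rats. Klf4, detected in 4033 of the 8782 nuclei, had ratios of 0.90 to 1.08 with the other 9 genes. Among genes outside the list, chosen here after their values were seen, Maff had a ratio of 3.09 with Fosb, and Hbegf and Edn1, which encode a growth factor and endothelin, had 2.08 and 1.98 with Egr1.

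**Figure D3:**
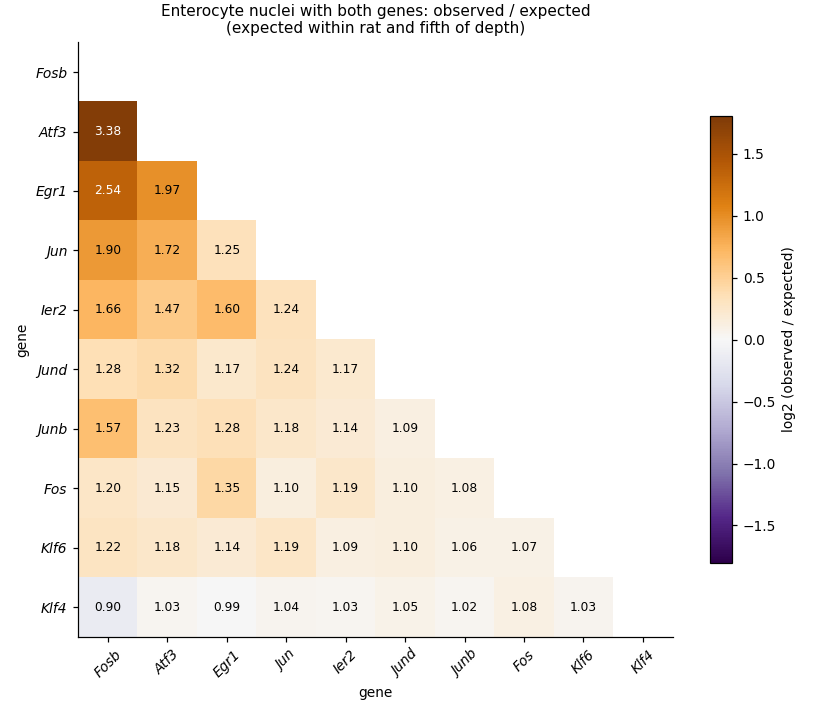
Observed over expected number of enterocyte nuclei with UMIs of both genes, for each of 45 pairs, with the ratio printed in each cell and the colour giving its log2. Pairs among Fosb, Atf3, Egr1 and Jun lie between 1.25 and 3.38, and the pairs of Klf4 between 0.90 and 1.08.

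Nuclei with many of these genes came largely from 1 placebo rat. Of 184 enterocyte nuclei with 7 or more of the 10 genes, GR22 held 115, which were 8.54% of its 1347 nuclei. GR43 held 30, GR12 held 26 and the other 6 rats held 0 to 5 each. GR12 had deeper nuclei than GR22, with a median of 2331 against 2026 UMIs, and 2.80% with 7 or more genes. In GR22 these nuclei had a median of 6922 UMIs and held 177 of 209 Fosb UMIs (84.7%), 65.5% of Atf3, 45.1% of Egr1 and 41.0% of Fos UMIs. Leaving GR22 out, an alternative added after the data were seen, 38 of 42 pairs with an expectation of at least 5 had a ratio above 1, with a median of 1.11. Egr1 and Atf3 then had 49 nuclei against 16.2 expected and Jun and Atf3 126 against 74.6. For Fosb and Atf3 15 nuclei remained, with 2.39 expected. Among pairs with an expectation of at least 5, Fos and Fosb (12 against 13.7) and Fos and Atf3 (97 against 98.5) were below 1 without GR22. So were Fosb and Jund (10 against 11.8) and Fosb and Klf4 (21 against 26.2). With all rats, each of these but Fosb and Klf4 was above 1.

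As counted, 51.2% of nuclei in GR12 but 4.11% in GR13, both sham, held 3 or more of the genes. The shares followed depth. After each nucleus was thinned to 300 UMIs, leaving out 252 sham, 103 placebo and 207 PL8177 nuclei below that depth, the share was 3.39% in GR22 and 0.658% to 1.47% in the other 8 rats. At least 1 of the genes was then found in 33.3% to 43.0% of nuclei, with GR22 highest and GR23, also placebo, lowest. The treatments overlapped in all of these shares.

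**Figure D4:**
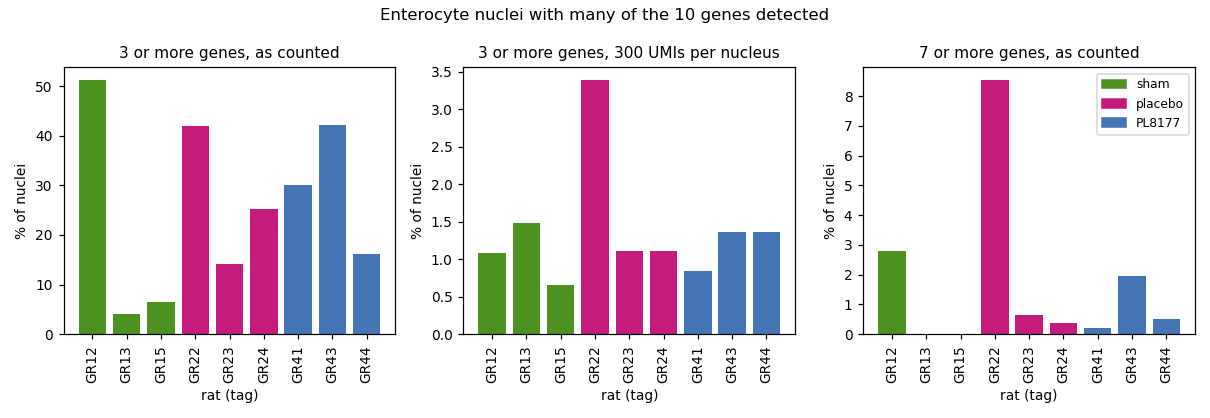
Percentage of enterocyte nuclei of each rat with 3 or more of the 10 genes as counted (left), with 3 or more after thinning to 300 UMIs (middle), and with 7 or more as counted (right), with bars coloured by treatment. GR22 reaches 3.39% after thinning and 8.54% for 7 or more genes, above the other 8 rats in both.

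T cell nuclei held few UMIs of these genes outside rat GR23. GR23 gave 161 of the 179 Fos UMIs, 545 of 610 Klf4 UMIs, 310 of 376 Junb UMIs and 42 of 45 Atf3 UMIs, beside 60.7% of all T cell UMIs. Its share was 89.0% for Jun, 73.8% for Klf6, 69.7% for Egr1, 66.0% for Jund and 46.2% for Ier2, and all 4 Fosb UMIs were from it. The 10 genes summed to 19.8 UMIs per 10000 in GR23 and to 5.28 to 13.7 in the other 8 rats, against 15.8 to 27.4 in enterocytes of the 9 rats. In the 238 T cell marker nuclei, pooled over rats, there were 44 UMIs of Jund, 40 of Junb, 38 of Klf6, 26 of Klf4, 22 of Egr1, 9 of Ier2, 7 of Jun, 2 of Fos, 1 of Atf3 and 0 of Fosb among 347463. A count of 0 there allows a level of up to 0.0863 per 10000, for counting error only.

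Between treatments, T cells gave no difference past the threshold in these genes. Only Junb, Klf4 and Klf6 passed the filter on low counts. Klf4 was at 1.02, 1.24 and 1.14 in the sham rats, 2.05, 7.00 and 0.659 in the placebo rats, and 1.25, 2.32 and 1.95 in the PL8177 rats, and the placebo rats overlapped both other groups. The PL8177 and sham rats did not overlap, although the lowest PL8177 value stands on 3 UMIs and the highest sham value on 1, and 5.58% of genes had PL8177 above sham rats without overlap. The log2 fold change of Klf4 in sham against placebo was −1.96 (SE 0.831, adjusted p = 0.919, edgeR). At an unadjusted p below 0.05 Klf4 was the only 1 of the 3 to pass, with 4.05% of genes passing as lower. Enterocyte markers had a median of −1.68 in the same comparison over 10 genes, and their part in the Klf4 value was not tested. None of the 10 genes passed the filter without GR12, GR23, GR24 or GR43, or with T cell marker nuclei only. Of 1828 genes, edgeR called 0 (0%) in each T cell comparison, DESeq2 likewise 0, and 90, 18 and 22 passed an unadjusted p below 0.05 in sham against placebo, PL8177 against placebo and PL8177 against sham. The depth limits these values, since 3 UMIs in GR13 amount to 3.72 per 10000.

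Set against enterocytes of the same rats, T cell nuclei had lower levels of 7 of the 9 genes tested. The fit used the rat as a block and 8013 genes, of which 22.6% were called lower and 16.3% higher in T cells at an adjusted p below 0.05. Klf4 fell by 2.45 on the log2 scale (SE 0.367, adjusted p = 2.14e-08, edgeR), Fos by 2.25, Jun by 2.14, Junb by 1.59, Jund by 1.41 and Klf6 by 1.39. Atf3 was also called lower, with a fitted −3.90 that depends on the prior count because no sham T cell nucleus held an Atf3 UMI. Many of the T cell levels stand on few UMIs, with 0 UMIs of Fosb in 8 rats, of Atf3 in 6 and of Ier2 in 3. With each T cell level under 3 UMIs set to the level of 3 UMIs, Junb was lower in T cells in 8 of 9 rats, Klf4 and Fos in 7, Jun, Jund and Klf6 in 6, Atf3 and Egr1 in 3, Ier2 in 2 and Fosb in 1. Egr1, at −0.06 (SE 0.436, adjusted p = 0.937), and Ier2, at −0.84 (SE 0.457, adjusted p = 0.142), were not called, and Fosb was not tested. Egr1 was at 0.590 in T cells and 0.721 in enterocytes of GR23, and at 2.93 and 0.143 in GR44, where the T cell value stands on 6 UMIs.

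Beside these genes, 14 of 15 enterocyte markers were called lower in T cells, with a median of −2.37, and 10 of 10 T cell markers higher. Also called higher were 12 of 12 cycling markers, with a median of 2.91, 3 of 4 macrophage and dendritic cell markers, with a median of 4.99, and 2 of 2 B cell markers, and their part in the values was not tested. Of 13 other immediate early genes tested, 8 were called lower, among them Fosl2 at −1.96 and Ier5 at −2.39, and Nr4a1, an orphan nuclear receptor gene, was called higher at 2.34. Of 13 feedback regulators 5 were lower, among them Dusp1 at −2.38, and 2 were higher, Dusp10 at 1.91 and Zfp36l1 at 0.82. Without GR23, 8 of the 9 genes were called, Ier2 included, with Fos at −3.23 and Klf4 at −3.05. With T cell marker nuclei only, which were chosen for few enterocyte marker UMIs, 8 were called and Egr1 stood at 0.10. The scaling moved the centre of this comparison. The median of all genes was −0.14 with edgeR and 0.13 with DESeq2, the calls were 1304 higher and 1808 lower against 1771 and 1319, and 7 of the 9 genes were called lower by both.

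Whether the treatments acted differently on these genes in the 2 cell types was tested as an interaction. No gene was called for sham (0%) or PL8177 (0%) against placebo by edgeR or DESeq2, with 550 (6.86%) and 337 (4.21%) of 8013 genes at an unadjusted p below 0.05. The median interaction of all genes was −0.29 for sham and −0.28 for PL8177 with edgeR, and −0.04 and 0.01 with DESeq2. For PL8177 the interaction of Egr1 was 2.58 (SE 0.994, adjusted p = 0.978, edgeR), with a range of 1.06 to 3.83 when each rat was left out. T cells of PL8177 rats GR41, GR43 and GR44 held 0, 3 and 6 Egr1 UMIs. Egr1 did not pass an unadjusted p below 0.05 without GR22 or GR44. It also did not pass with nuclei of at least 500 genes or with T cell marker nuclei only. For sham, Atf3 passed the unadjusted threshold, but sham T cells held 0 Atf3 UMIs.

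Within the enterocytes, 163 nuclei with at least 2 UMIs of 12 cycling markers, 3 to 52 per rat, were compared with the other 8619. All 7 genes tested had a fitted log2 fold change (edgeR) below 0 in cycling marker nuclei, although Atf3 stood at 0.16 with the scaling of DESeq2, and 4 fell past the threshold. Of all 4457 genes tested, 43.4% were above 0. Klf6 fell by 1.28 on the log2 scale (SE 0.232, adjusted p = 2.95e-06, edgeR with the rat as a block), Jund by 0.90 (SE 0.235, adjusted p = 0.00215), Jun by 0.81 (SE 0.260, adjusted p = 0.0153) and Klf4 by 0.60 (SE 0.200, adjusted p = 0.0207). Klf6 and Jund were lower in 9 of 9 rats, with means of 0.737 ± 0.681 (SD, n = 9) against 2.45 ± 0.550 UMIs per 10000 for Klf6 and 0.847 ± 0.711 against 2.07 ± 0.507 for Jund. Jun and Fos were lower in 8 of 9 rats and Klf4 in 7. Means over rats were higher in cycling marker nuclei for Atf3, at 1.96 ± 3.61 against 0.608 ± 0.516 with 5 of 9 rats lower, and for Junb, at 3.39 ± 3.30 against 3.25 ± 1.03 with 6 of 9 lower. They were also higher for the genes not tested, which stood on few UMIs. These were Fosb (0.448 against 0.0988, 8 of 9 rats lower), Egr1 (0.797 against 0.398, 6 of 9 lower) and Ier2 (0.336 against 0.315, 5 of 9 lower). In the edgeR fit without the filter on low counts, 0 of the 10 genes had a fitted value above 0. Of all 16533 genes in that fit, 35.6% were above 0, with a median of −0.34. Fos at −0.46, Junb at −0.42 and Atf3 at −0.17 were not called. Of 4457 genes, 11.4% were called lower and 7.38% higher. Of 14 enterocyte markers tested, 9 were called lower and 0 had a value above 0, with a median of −0.67. Dusp6, Dusp5, Zfp36, Ier5, Rhob and Btg1 of the other immediate early and feedback lists were also called lower. Cycling marker nuclei were deeper, with a median of 1890 against 1077 UMIs, and with all nuclei thinned to 300 UMIs only Klf4, at −0.70 (adjusted p = 0.352, edgeR), and Junb, at −0.28, could be tested and neither was called. Only Klf6 was called by DESeq2, whose scaling set the median of all genes at 0.18 instead of −0.08 and the calls at 315 higher and 78 lower instead of 329 and 506. Without the rat as a block Klf6 and Jund were called, and with at least 1 cycling UMI none was. When each rat was left out, Klf6 and Jund stayed called, Jun lost its call without GR12, GR22 or GR43 (−0.71, −0.58 and −1.10) and Klf4 without GR41, GR43 or GR44 (−0.59, −0.69 and −0.52), and Atf3 was called without GR23, at −1.07.

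**Figure D5:**
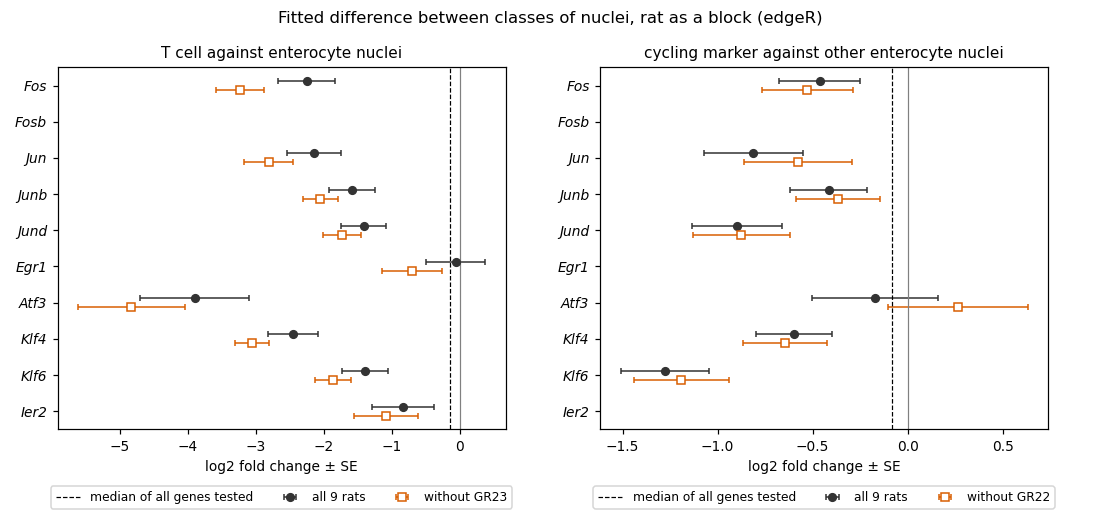
Fitted log2 fold change with its SE (horizontal axis) for the genes tested, T cell against enterocyte nuclei (left) and cycling marker against other enterocyte nuclei (right), with all 9 rats (filled circles) and without GR23 or GR22 (open squares), the dashed line giving the median of all genes tested. In T cells, 7 of the 9 genes tested are called lower, with Egr1 near the dashed line, and Klf6 is the lowest gene in cycling marker nuclei.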

How the data were processed

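Reads were turned by the authors into UMI counts with Cell Ranger 6.0.1 (rat genome Rnor 6.0, introns included), CellBender took out empty droplets, and cell types were assigned by them from Seurat 4.0.3 clusters. Whole, unnormalized counts were deposited in 6 tables, 1 for each cell type and treatment. The placebo T cell table, as read here, breaks off within a gene after 15108 complete genes, against 17388 in the other 5 tables, so T cells were compared over these 15108. The start of each nucleus name gave the tag taken as the rat; nothing else in the labels separates rats, so p-values measure the spread between these tags.

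The sums over each rat's nuclei of a cell type were tested by edgeR 4.0.16, run in R 4.3.3 (TMM, filterByExpr, quasi-likelihood test, Benjamini-Hochberg adjustment over all genes tested, 3 treatments in 1 fit). Between treatments a call needed an adjusted p below 0.05 and a log2 fold change beyond 0.5 in either direction for enterocytes or 1.5 for T cells, and the other fits an adjusted p below 0.05. DESeq2 1.42.0 was an alternative. T cells against enterocytes and cycling marker against other nuclei were fitted with the rat as a block, since both sums of a rat come from 1 library. Both tools were tested on simulated data. In these, for PL8177 against placebo over 9424 enterocyte genes, edgeR called 12% of genes changed by 1 on the log2 scale and 83% of those changed by 3. For sham against placebo the shares were 7% and 88%. In T cells, over 1828 genes, they were 2% and 61% for sham and 2% and 58% for PL8177 against placebo. A change of 1 lies below the T cell threshold of 1.5. For PL8177 against placebo in enterocytes, DESeq2 called 21% of genes changed by 1 and 81% of those changed by 3. Of 8845 unchanged genes it called 0.215%, against 0.0791% with edgeR.

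Co-detection was counted per nucleus within rat and 5 depth classes and carries no test. Scrublet (scanpy 1.11.5) called 57 of 9800 nuclei doublets (0.582%), which were kept and left out as an alternative. Python 3.11.15, numpy 2.4.6, pandas 2.3.3, scipy 1.17.1 and matplotlib 3.10.9 served for the rest.

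The 10 genes, the other lists and the tests were chosen with earlier results of these data known. Named beside the 10 genes are, for each other list and comparison, the genes called or else the 2 with the smallest p, and the genes most alike over rats among those with at least 200 UMIs. Of these a selection is printed. The study's other cell types were not analysed here.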

Additional observations from a re-analysis of the deposited data

How the results depend on the processing

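In enterocytes, genes called between sham and placebo numbered 107 with DESeq2, 51 without the filter on low counts, 9 with nuclei thinned to 300 UMIs and 0 to 8 when each rat was left out. For PL8177 against placebo they numbered 50, 8 without the filter, and 0 with each rat left out, and for PL8177 against sham 4, 10 and 0 to 2. Egr1, the 1 of the 10 genes called by DESeq2, was called in no other alternative. In T cells the unfiltered fit called 33 genes in sham and 4 in PL8177 rats relative to placebo, and leaving out rats gave 0 to 1 for PL8177 against sham. Klf6 there turned, in PL8177 against placebo, to −0.12 without the filter and lay between −0.033 and 0.38 with rats left out, and Junb in PL8177 against sham between −0.14 and 0.44. Without GR12, GR23, GR24 or GR43 none of the 10 genes passed the filter in T cells.

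Of the 4 genes called lower in cycling marker nuclei, DESeq2 called 1, at least 1 cycling UMI 0, no replicate block 2, thinned nuclei 0 of 2 tested, and leaving out rats 2 to 5. Atf3 there turned to 0.16 with DESeq2 and lay between −1.07 and 0.27 with rats left out. Egr1 in T cells against enterocytes was 0.21 with DESeq2, 0.10 in T cell marker nuclei, 0.12 without the rat as a block, and −0.70 to 0.46 with rats left out. The causes were not tested. The median co-detection ratio of enterocytes was 1.41 in thinned nuclei, where 37 of 45 pairs were above 1 against 43 as counted. Thinned ratios of the rarer genes stand on too few nuclei to be read. Fosb and Atf3 had 1 nucleus against 0.558 expected, and Egr1 and Ier2 had 0 against 1.28. Without GR22 the median co-detection ratio was 1.11. The median share of nuclei with 3 or more genes was 1.11% in thinned nuclei. No paired analysis was possible between treatments because the tags carry no numbers that pair rats across treatments. Nuclei with at least 500 genes and doublets left out changed none of the counts of genes called by more than 1.5 times.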
